A study of Mus musculus with 6 samples.

Results

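The genes described here are 41 genes of the presynaptic machinery that releases neurotransmitter, taken as the rows of the hippocampal count table whose gene symbol in the Ensembl 95 and GENCODE M21 annotation of GRCm38 is on a list of SNARE, synaptotagmin, complexin, active zone and synaptic vesicle genes. All 41 listed symbols were found among the 54838 genes of the table, and all 41 had enough counts to be tested. A synaptic vesicle is filled with transmitter by a vesicular transporter, tethered by synapsins and Rab3, and docked at the active zone, a protein scaffold built of Bassoon, Piccolo, RIM and ELKS proteins. Munc13 proteins prime the vesicle, a vesicle SNARE zips up with the target-membrane SNAREs syntaxin and SNAP-25, complexin holds the partly zipped complex, and synaptotagmins trigger fusion when calcium enters. In the hippocampus the mossy fibre, Schaffer collateral and interneuron synapses use different paralogs of these proteins.

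RNA was sequenced from the hippocampi of females aged 7 months, 3 wild-type mice and 3 mice of the line FVB/NJ-Tg(ORAI1)Ibd (FVB/NJ-Tg(Orai1)Ibd in the sample labels), with 1 library per mouse. The transgenic line carries human ORAI1, the pore subunit of the store-operated calcium channel, under a Thy1.2 promoter cassette that is active in neurons. The strain of the wild-type controls was not given in the sources used here. The comparison asks which hippocampal transcripts differ when neurons overexpress ORAI1. Orai1 itself, the check of the genotype labels, was at 7.18, 7.16 and 8.08 CPM (a gene's count as a share of the scaled library total) in the wild-type and at 313, 331 and 316 CPM in the transgenic mice, a log2 fold change of 5.42 ± 0.0663 (SE, n = 3 per genotype) (edgeR adjusted p = 3.84e-08). This is the row of the mouse gene, in which reads of the human transgene and of mouse Orai1 cannot be told apart. All later fold changes are likewise over 3 mice per genotype. Library totals ran from 37414241 to 52497799 counts. The libraries were also compared over 11191 genes with the mean of each genotype subtracted. Transgenic mouse 1 deviated with wild-type mice 1 and 2 (correlations of 0.399 and 0.400). Transgenic mice 2 and 3 deviated with wild-type mouse 3 (0.536 and 0.388), while the other pairs ran from -0.588 to -0.254. The subtraction makes the deviations within a genotype cancel for each gene. Any sets thus had to cross the genotypes, with correlations of both signs, and only their members and the sizes were read from the data. Gfap, the intermediate filament gene of astrocytes, followed the sets, with 323, 355 and 836 CPM in the wild-type and 386, 922 and 839.8 CPM in the transgenic mice. No label names a batch, and the part of these sets in the values of the release genes was not tested. The tissue was bulk, so that fewer cells of a type and less RNA per cell cannot be told apart in any value below.

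Per kilobase of transcript, the machinery ran over a wide range of level in wild-type hippocampus. The 41 genes were ranked by FPKM (CPM per kilobase of exon), the scale on which levels of different genes can be set side by side. Cplx2 (complexin 2) stood at 280.0 ± 12.9 FPKM (SD, n = 3), Snap25 at 277 ± 1.09 FPKM and Cplx1 at 239.9 ± 5.90 FPKM. Cplx2 and Snap25 were not separated by their SDs, and both stood above Cplx1. Next came Syp (synaptophysin) at 227 ± 8.58 FPKM, Vamp2 (synaptobrevin 2) at 219 ± 5.73 FPKM and Slc17a7 (the vesicular glutamate transporter VGLUT1) at 219 ± 4.22 FPKM. These 3 were not separated by their SDs, nor was Syp from Cplx1. Rab3a followed at 189 ± 2.31 FPKM, Syt1 at 179 ± 10.5 FPKM, Syt11 at 144 ± 4.82 FPKM and Syn1 at 144 ± 3.56 FPKM. At the other end lay Syt2 at 4.08 ± 0.283 FPKM, Unc13c at 3.66 ± 0.649 FPKM, Cplx3 at 1.51 ± 0.225 FPKM and Syn3 at 0.588 ± 0.0175 FPKM. The lowest 4 were thus a synaptotagmin, a Munc13, a complexin and a synapsin, each with a paralog at a higher level. The giant active zone scaffolds Bsn and Pclo were at 32.6 ± 2.06 and 16.0 ± 1.21 FPKM.

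**Figure D1:**
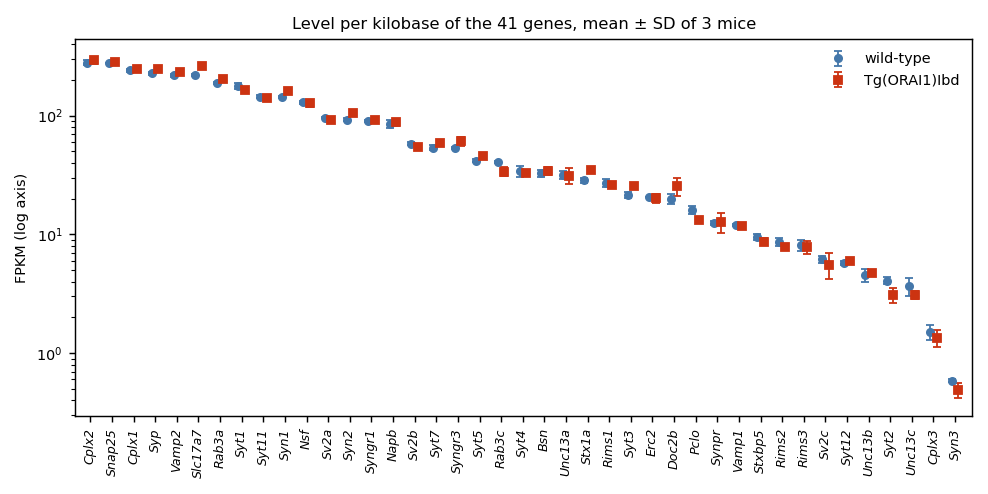
Level of the 41 genes in FPKM on a log axis, ordered by the wild-type mean, with wild-type means as circles, transgenic means as squares and bars for the SD of 3 mice. Levels fall from 280.0 FPKM for Cplx2 to 0.588 FPKM for Syn3, and the transgenic squares lie close to the wild-type circles over the whole range.

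Between the genotypes, Stx1a rose by 21.7%, Syt3 by 19.5% and Slc17a7 by 19.4% in Tg(ORAI1)Ibd hippocampus, while Pclo fell by 17.2%. None of these 4 passed once the trend of each library on GC content was removed (adjusted p from 0.0963 to 0.181). The other genes of the list did not pass the test. By edgeR's quasi-likelihood test, with p adjusted over all 19087 genes tested, 3 of 41 genes were higher and 1 of 41 lower, where 3.10% of all genes tested were called higher and 4.0% lower (7.10% in either direction). With an unadjusted p under 0.05 there were 9 higher (Stx1a, Syt3, Slc17a7, Syn1, Syn2, Syt5, Syngr3, Doc2b and Rab3a) and 3 lower (Pclo, Rab3c and Syt2), beside 13.0% and 14.8% of all genes. DESeq2's Wald test called 6 higher (adding Syn1, Syn2 and Doc2b) and 3 lower (adding Rab3c and Syt2), beside 6.54% and 7.29% of the genes it tested. The CPM of all 3 transgenic mice lay above those of all 3 wild-type mice for 11 of 41 genes and below them for 3 of 41, and the same held for 16.9% and 17.9% of all genes tested. The median log2 fold change of the 41 genes was 0.023, with values from -0.38 to 0.35, beside a median of -0.010 over all genes tested. In total, the 41 genes held 1.76 to 1.80% of the counts in wild-type libraries and 1.79 to 1.86% in transgenic libraries, ranges that overlap.

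**Figure D2:**
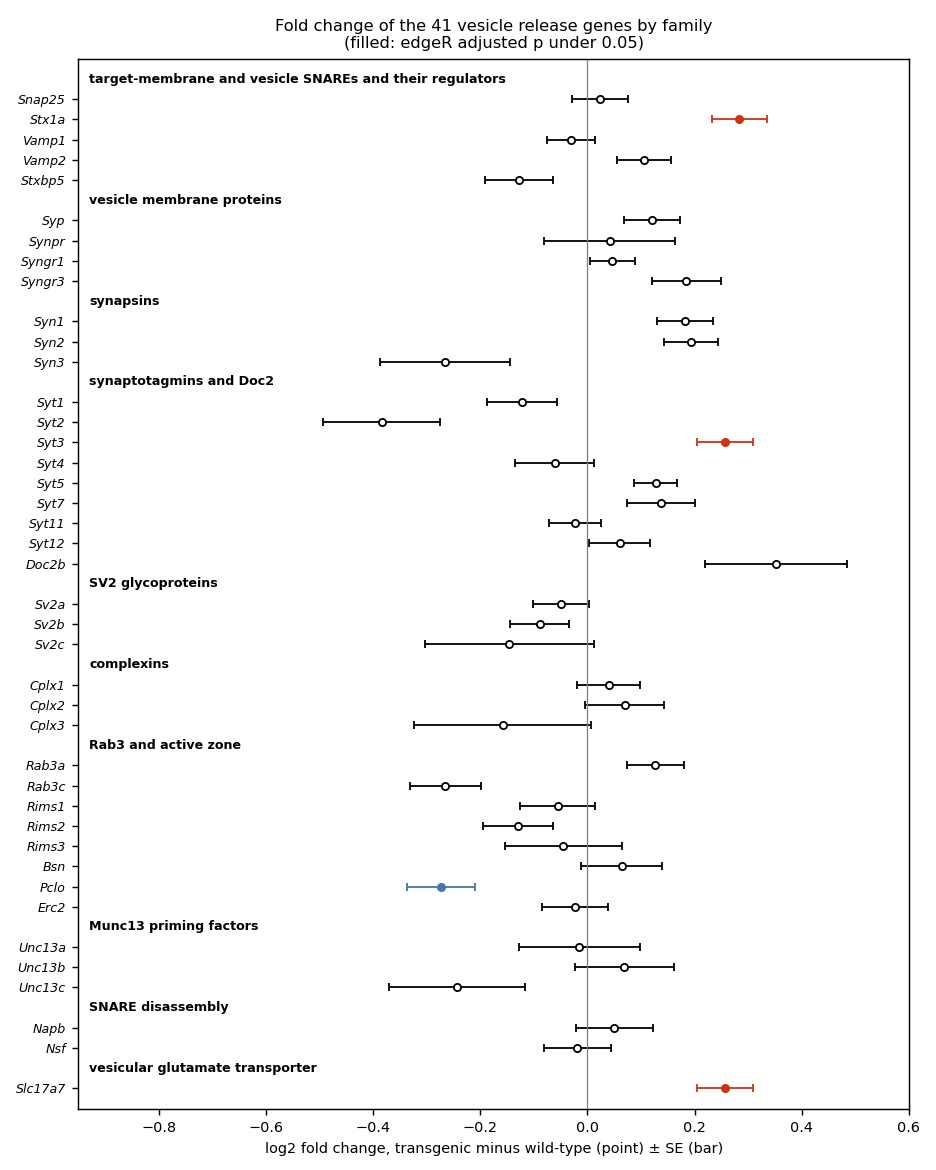
Log2 fold change (transgenic minus wild-type) of the 41 genes with SE bars, grouped by family, with filled points for an edgeR adjusted p under 0.05. Stx1a (0.28), Syt3 (0.26) and Slc17a7 (0.26) lie to the right of 0 and Pclo (-0.27) to the left, while synapsins, synaptotagmins and Rab3 genes each have members on both sides.

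Stx1a (ENSMUSG00000007207) encodes syntaxin 1A, the target-membrane SNARE of the neuronal plasma membrane, and lies at chr5:135023482-135051100 on the forward strand of GRCm38. Its level was 77.2, 71.7 and 78.8 CPM in the 3 wild-type mice and 93.6, 89.2 and 94.3 CPM in the 3 transgenic mice. All transgenic values lay above all wild-type values, and Stx1a had a log2 fold change of 0.28 ± 0.0513 (SE) with an edgeR adjusted p of 0.0279. Its partner in the target membrane, Snap25, was at 1882, 1889 and 1876 CPM in the wild-type and 1862, 1942 and 1935 CPM in the transgenic mice. These ranges overlapped, and the log2 fold change of Snap25 was 0.023 ± 0.0520 (SE, adjusted p = 0.809). Vamp2, the vesicle SNARE of most forebrain synapses, was at 859.8, 830.3 and 811 CPM against 923, 884 and 884 CPM. The transgenic values of Vamp2 were all higher, without passing the test (log2 fold change 0.11, adjusted p = 0.218). Its paralog Vamp1 had a log2 fold change of -0.031 (adjusted p = 0.701). Stxbp5 (tomosyn), which binds syntaxin and SNAP-25 and restrains release, had a log2 fold change of -0.13 (adjusted p = 0.233). The call in this family was thus on 1 of 5 genes, a target-membrane SNARE, beside 3.10% of all genes tested called higher.

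Syt3 (ENSMUSG00000030731) encodes synaptotagmin 3, a calcium sensor with high affinity, and lies at chr7:44384102-44400187 on the forward strand. It was at 64.0, 66.4 and 71.5 CPM in the wild-type and 78.2, 81.7 and 81.3 CPM in the transgenic mice. The groups did not overlap, and the log2 fold change was 0.26 ± 0.0529 (SE, edgeR adjusted p = 0.0361). Syt1, the fast sensor of most hippocampal synapses and the most abundant of the family, was at 1579, 1492 and 1394 CPM against 1432, 1332 and 1339 CPM. Here the groups overlapped, with a log2 fold change of -0.12 ± 0.0657 (SE, adjusted p = 0.270). Syt2, the fast sensor that replaces Syt1 in many parvalbumin interneurons, was at 32.5, 32.4 and 28.6 CPM against 27.9, 21.1 and 22.6 CPM. Every transgenic value of Syt2 was below every wild-type value, and the log2 fold change of -0.38 ± 0.110 (SE) did not pass the test (adjusted p = 0.0737). Syt5 had a log2 fold change of 0.13 (adjusted p = 0.0950), with all transgenic values higher. Syt7, the slow sensor of asynchronous release, had 0.14 (adjusted p = 0.206) on the same log2 scale. Syt4 and Syt11, whose first C2 domain does not bind calcium, had log2 fold changes of -0.061 and -0.023 (adjusted p = 0.639 and 0.800), and Syt12, another synaptotagmin that does not bind calcium, had 0.060 (adjusted p = 0.536). Doc2b, a high-affinity sensor linked to spontaneous release, had the highest fitted log2 fold change of the 41 genes, with 92.6, 92.3 and 76.3 CPM in the wild-type and 130.1, 112 and 91.0 CPM in the transgenic mice. Transgenic mouse 3 fell within the wild-type range, and the log2 fold change of Doc2b was 0.35 ± 0.132 (SE, adjusted p = 0.135).

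Slc17a7 (ENSMUSG00000070570) encodes VGLUT1, which loads glutamate into the vesicles of most hippocampal excitatory terminals, and lies at chr7:45163949-45176142 on the forward strand. Its level was 1167, 1169 and 1201 CPM in the wild-type and 1458, 1405 and 1361 CPM in the transgenic mice. No values overlapped, and the log2 fold change was 0.26 ± 0.0525 (SE, edgeR adjusted p = 0.0356). Among the abundant genes of the vesicle itself, Syp was at 1189, 1132 and 1218 CPM against 1263, 1289.7 and 1294 CPM. The transgenic values of Syp were all higher, with a log2 fold change of 0.12 ± 0.0524 (SE) that did not pass (adjusted p = 0.185). The tetraspan proteins Syngr1 and Syngr3 (synaptogyrins) also had all transgenic values above the wild-type ones, with log2 fold changes of 0.047 (adjusted p = 0.508) and 0.18 (adjusted p = 0.117). Synpr (synaptoporin), a synaptophysin relative of mossy fibre terminals, overlapped between the groups with 0.041 (adjusted p = 0.862). All 4 vesicle membrane genes thus had a positive log2 fold change, beside 9216 of all 19087 genes tested. The adjusted threshold was passed by 0 of 4 in edgeR or in DESeq2, beside 3.10% and 6.54% of all genes called higher. An unadjusted p under 0.05 was found for 1 of 4 (Syngr3), beside 13.0% of all genes on the higher side.

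Pclo (ENSMUSG00000061601) encodes Piccolo, a giant scaffold of the active zone, and lies at chr5:14514918-14863459 on the forward strand. It was at 391, 346 and 338 CPM in the wild-type and 304, 288 and 298 CPM in the transgenic mice. All transgenic values were lower, and the log2 fold change was -0.27 ± 0.0635 (SE, edgeR adjusted p = 0.0463). Its relative Bsn (Bassoon) was at 550.1, 527 and 482 CPM against 595, 519 and 516 CPM, overlapping, with a log2 fold change of 0.064 (adjusted p = 0.628). Rab3a, the main vesicle GTPase, was at 422, 424 and 413 CPM against 486, 449.7 and 438 CPM, with all transgenic values above and a log2 fold change of 0.13 ± 0.0530 (SE, adjusted p = 0.171). Its paralog Rab3c lay on the other side, at 499.9, 496 and 476 CPM against 415, 438 and 372 CPM. The transgenic values of Rab3c were all below the wild-type ones, with a log2 fold change of -0.27 ± 0.0663 (SE) just short of the threshold (adjusted p = 0.0550). The RIM scaffolds, which bind Rab3 and calcium channels, had log2 fold changes of -0.055 for Rims1 (adjusted p = 0.655), -0.13 for Rims2 (adjusted p = 0.241) and -0.045 for Rims3 (adjusted p = 0.829). Erc2 (ELKS2) had -0.023 (adjusted p = 0.846). Of these 8 genes 1 passed, as lower, beside 4.0% of all genes tested. A negative log2 fold change was seen for 6 of 8, beside 9871 of all 19087 genes tested.

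**Figure D3:**
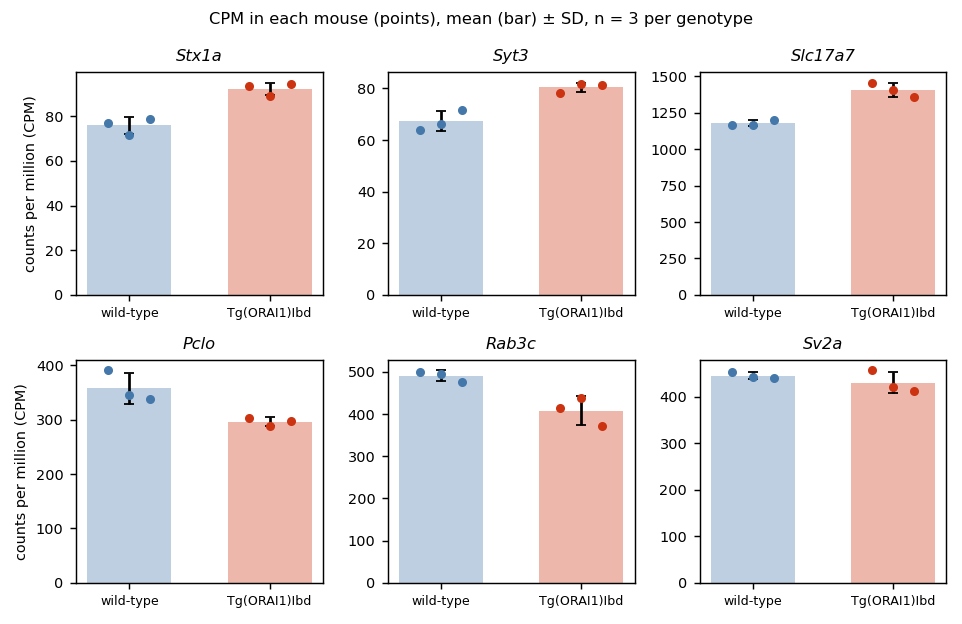
CPM in each mouse (points) with the mean (bar) and SD of 3 mice per genotype for the 4 genes that passed the test, for Rab3c and for Sv2a, with axes that start at 0. Transgenic points lie above the wild-type points for Stx1a, Syt3 and Slc17a7 and below them for Pclo and Rab3c, and they overlap for Sv2a.

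With a mouse left out, log2 fold changes lay between 0.26 and 0.33 for Stx1a, 0.24 and 0.31 for Syt3, 0.23 and 0.30 for Slc17a7 and -0.31 and -0.19 for Pclo, so that the 4 kept their direction, but fewer genes of the whole table were called. Without wild-type mouse 1, wild-type mouse 2, transgenic mouse 2 or transgenic mouse 3, 0 of 41 genes passed (9 to 14 had an unadjusted p under 0.05), with edgeR adjusted p from 0.0622 to 0.121 for Stx1a, 0.0911 to 0.140 for Syt3, 0.0925 to 0.162 for Slc17a7 and 0.143 to 0.185 for Pclo. In the same order, 0.0570%, 0.0674%, 0.316% and 0.0971% of all genes tested were called higher in these fits and 0.342%, 0.420%, 0.662% and 0.455% lower. Without wild-type mouse 3 (beside 2.03% and 3.25% of all genes), Slc17a7 (0.0543) and Pclo (0.0502) no longer passed, and without transgenic mouse 1 (beside 2.40% and 3.52%) Pclo (0.0545) no longer passed while Syt2 did (0.0220). Pclo also missed the threshold with DESeq2's size factors (0.0551) and with at least 10 counts required in every library (0.0524).

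Markers of other cell types were read in the same libraries, where 3.10% of all genes tested were called higher and 4.0% lower, and 13.0% and 14.8% had an unadjusted p under 0.05. All 26 choroid plexus markers were lower in the transgenic mice, with a summed level of 4173 to 6372 CPM in the wild-type and 659.6 to 964 CPM in the transgenic mice, which was 0.419 to 0.638% and 0.0661 to 0.0956% of the counts. Of 16 pan-neuronal markers 2 were higher (Nefh and Uchl1) and 1 lower (Elavl2), and their summed level of 7744 to 8322 CPM and 7831 to 8019 CPM overlapped. Of 12 interneuron markers 2 were lower, Gad2 (-0.52, adjusted p = 0.0272) and Reln (-0.47, adjusted p = 0.0387), with sums of 1263 to 1456 CPM and 1170.3 to 1412 CPM. At an unadjusted p under 0.05 there were 4 lower and 0 higher, adding Gad1 (-0.28, adjusted p = 0.116) and Slc32a1 (-0.27, adjusted p = 0.177). Pvalb, the marker of the interneurons in which Syt2 is best known, had a log2 fold change of 0.093 (adjusted p = 0.644). Of the CA1 markers, 1 of 7 was lower, and 1 of 7 endothelial markers was higher, and edgeR called 0 of the dentate granule cell, CA3, thalamus and septum, neocortex, astrocyte, oligodendrocyte and microglia markers (63 in all, of which 7 had an unadjusted p under 0.05 and DESeq2 called 3). None of these markers was at 0 counts in any library, and their part in the values of the release genes was not tested.

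The promoters of the 4 genes that passed the test are shown because 3 of them rose and 1 fell. They are the 250 bases before the start annotated in RefSeq on GRCm38.p6, which differs from the Ensembl start for Syt3 and Slc17a7, all on the forward strand, at chr5:135023232-135023481 for Stx1a, chr7:44383876-44384125 for Syt3, chr7:45163671-45163920 for Slc17a7 and chr5:14514668-14514917 for Pclo. Capitals mark matches, on either strand, to the letters GGGCGG of the SP1 motif.
Stx1a: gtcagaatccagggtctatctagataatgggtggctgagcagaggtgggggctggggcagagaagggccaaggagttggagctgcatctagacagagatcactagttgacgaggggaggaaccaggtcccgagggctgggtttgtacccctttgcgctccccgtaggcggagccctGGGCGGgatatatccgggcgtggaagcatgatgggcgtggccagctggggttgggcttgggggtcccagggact
Syt3: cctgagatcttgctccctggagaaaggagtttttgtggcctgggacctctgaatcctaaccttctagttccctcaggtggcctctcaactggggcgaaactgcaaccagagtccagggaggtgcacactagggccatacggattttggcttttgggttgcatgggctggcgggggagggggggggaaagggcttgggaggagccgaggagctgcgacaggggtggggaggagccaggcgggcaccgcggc
Slc17a7: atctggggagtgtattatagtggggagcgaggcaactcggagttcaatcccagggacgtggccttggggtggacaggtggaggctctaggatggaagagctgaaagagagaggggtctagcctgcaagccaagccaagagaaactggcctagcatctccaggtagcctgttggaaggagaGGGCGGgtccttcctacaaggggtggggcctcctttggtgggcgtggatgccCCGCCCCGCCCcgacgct
Pclo: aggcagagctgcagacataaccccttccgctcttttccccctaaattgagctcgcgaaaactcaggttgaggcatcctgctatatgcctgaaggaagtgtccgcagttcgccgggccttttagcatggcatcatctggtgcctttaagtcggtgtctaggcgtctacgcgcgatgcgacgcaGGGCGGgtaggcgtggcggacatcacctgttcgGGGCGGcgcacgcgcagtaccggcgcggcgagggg
Stx1a held 1 match, at position -74 from the start, Pclo held 2, at -68 and -35, and Slc17a7 held 3, of which the 2 on the reverse strand, at -18 and -13, overlapped in 1 run of capitals. Syt3 held 0. GC content was 61.2% to 62.4% in all 4. A promoter was found for 31 of the 41 genes, and 22 of these 31 (71.0%) held GGGCGG, beside 35.4% of all 27025 genes with a promoter of this length (32.7% of 32851 single promoters). The median GC content was 61.2% for promoters of the release genes and 52.4% for all promoters. The cAMP response element TGACGTCA was in 1 of 31 (Syn1, 3.23%), beside 1.77% of all genes (1.55% of single promoters), read on both strands. These are matches of letters only.

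None of the 3 synapsins, which hold vesicles in the reserve pool, passed the test in edgeR on the deposited counts. Syn1 was at 478, 462 and 484 CPM in the wild-type and 568, 523 and 523 CPM in the transgenic mice. The groups did not overlap, and the log2 fold change of Syn1 was 0.18 ± 0.0524 (SE, adjusted p = 0.0755). Syn2 was at 641, 639 and 674 CPM against 733, 772 and 729 CPM, again without overlap, with 0.19 ± 0.0505 (SE, adjusted p = 0.0601). Both stayed short of the adjusted threshold in edgeR on the deposited counts and passed it in DESeq2's Wald test (0.0176 for Syn1 and 0.00190 for Syn2). Syn3, the scarce member, was at 7.47, 7.01 and 7.16 CPM against 5.57, 5.43 and 7.02 CPM, with overlap and a log2 fold change of -0.27 ± 0.121 (SE, adjusted p = 0.204).

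The SV2 glycoproteins of the vesicle membrane included Sv2a, the binding site of the antiepileptic drug levetiracetam and a gene that the study also measured by PCR. The study's real-time PCR put Sv2a lower in the transgenic mice, with a Tukey test p above 0.05, and the size of that difference was not compared here. Sv2a was at 454, 442 and 439.8 CPM in the wild-type and 456, 421 and 413 CPM in the transgenic mice. Transgenic mouse 1 had the highest value of all 6 and transgenic mouse 3 the lowest, and the log2 fold change was -0.049 ± 0.0527 (SE, adjusted p = 0.588). Sv2b had -0.089 (adjusted p = 0.338) and Sv2c -0.15 (adjusted p = 0.593) on the log2 scale. Sv2c varied more among the transgenic mice (42.5, 51.1 and 68.7 CPM) than among the wild-type mice (57.7, 64.4 and 57.2 CPM). The complexins, which clamp and then assist the SNARE complex, overlapped between the genotypes in all 3 cases. Cplx2 was at 1411, 1424 and 1302 CPM against 1577, 1400.0 and 1364 CPM, with a log2 fold change of 0.069 ± 0.0735 (SE, adjusted p = 0.586). Cplx1 had 0.039 (adjusted p = 0.708) and the scarce Cplx3 -0.16 (adjusted p = 0.581). For the SV2 and complexin genes, edgeR called 0 of 6, 0 of 6 had an unadjusted p under 0.05, and DESeq2 called 0 of 6.

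The Munc13 priming factors overlapped between the genotypes in all 3 cases. Unc13a, the main Munc13 gene of excitatory terminals, was at 429, 401 and 368 CPM in the wild-type and 468, 355 and 361 CPM in the transgenic mice. Transgenic mouse 1 was above and the other transgenic mice below all wild-type mice, and the log2 fold change of Unc13a was -0.016 ± 0.113 (SE, adjusted p = 0.946). Unc13b had 0.069 (adjusted p = 0.675) and Unc13c, best known from cerebellum, -0.24 (adjusted p = 0.257). The genes that take the spent SNARE complex apart had log2 fold changes within 1 SE of 0. The ATPase Nsf was at 1084, 1099 and 1046 CPM against 1141, 1042 and 1005 CPM, a log2 fold change of -0.019 ± 0.0627 (SE, adjusted p = 0.880), and its adaptor Napb had 0.050 ± 0.0714 (SE, adjusted p = 0.693). For these 5 genes edgeR and DESeq2 called 0, and 0 had an unadjusted p under 0.05.

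Paralogs of the same family can stand in for each other, and their ratio within a library does not depend on how libraries were scaled. For 17 pairs the log2 ratio of FPKM was taken in each mouse. The genotypes did not overlap for 7 pairs, with a lower ratio in the transgenic mice for 5 and a higher one for 2. Among all single genes tested, 16.9% were without overlap and higher in the transgenic mice, and 17.9% without overlap and lower. No such share was computed for ratios of other gene pairs. Rab3c against Rab3a was -2.19, -2.21 and -2.23 in the wild-type and -2.67, -2.47 and -2.67 in the transgenic mice. Pclo against Bsn was -0.99, -1.10 and -1.01 in the wild-type and -1.46, -1.34 and -1.29 in the transgenic mice. Syt7 against Syt1 was higher in the transgenic mice instead, with -1.75, -1.71 and -1.73 in the wild-type and -1.49, -1.53 and -1.39 in the transgenic mice. The log2 ratio of Rab3c to Rab3a thus differed by -0.39 between the genotype means, that of Pclo to Bsn by -0.33 and that of Syt7 to Syt1 by 0.26. The other 4 pairs without overlap were Syn3 to Syn1 (-0.45), Syt2 to Syt1 (-0.27), Vamp1 to Vamp2 (-0.14) and Syngr3 to Syngr1 (0.13). Each of the 7 had an exact two-sided permutation p of 0.1, the smallest that 3 mice against 3 can give, and 0.243 after Benjamini-Hochberg adjustment over the 17 pairs, so that none could pass. With the GC trend removed from each library, the differences were -0.19 for Rab3c to Rab3a, -0.14 for Pclo to Bsn, 0.12 for Syt7 to Syt1, -0.37 for Syt2 to Syt1 and 0.13 for Syngr3 to Syngr1, each at an exact p of 0.1. Those of Syn3 to Syn1 (-0.27, exact p = 0.2) and Vamp1 to Vamp2 (-0.034, exact p = 0.4) no longer separated the genotypes, while that of Sv2b to Sv2a (0.079, exact p = 0.1) did so only with the trend removed. The longest run of bases shared by transcripts of 93 pairs within families was 36 bases, between Syt2 and Syt7. Reads were 76 bases long as sequenced, before trimming.

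**Figure D4:**
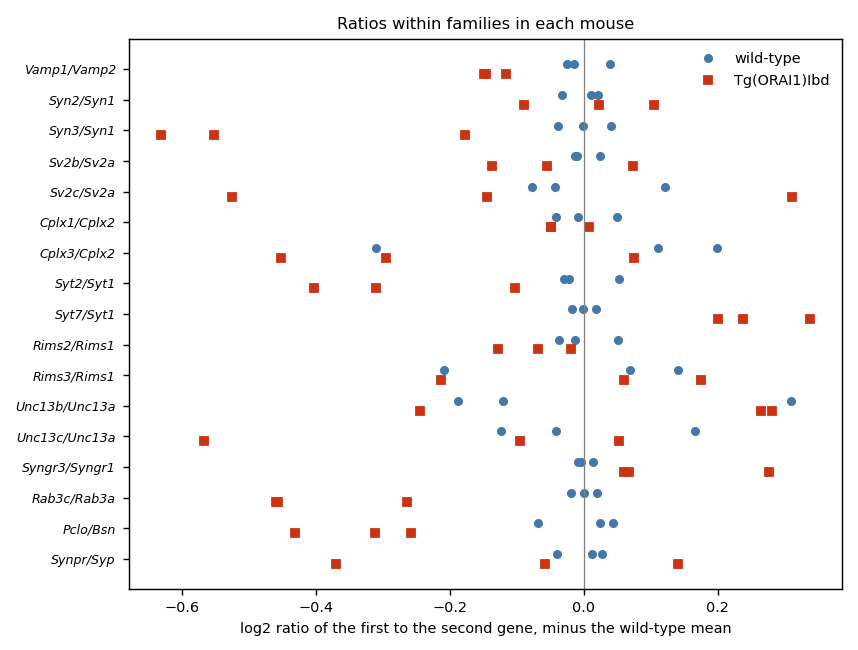
Log2 ratio of FPKM of 2 genes of a family in each mouse, with the wild-type mean of the pair set to 0, wild-type mice as circles and transgenic mice as squares. All 3 squares lie left of the circles for Rab3c/Rab3a and Pclo/Bsn, and right of them for Syt7/Syt1 and Syngr3/Syngr1.

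The fold changes ran along a property of the transcripts. Over the 41 genes, the log2 fold change rose with the GC content of the longest transcript (Spearman rho = 0.57) and fell with exonic length (rho = -0.56). These are descriptions over genes read from the same 6 libraries, and over all genes tested the values were 0.38 and -0.17. Of all 19087 genes tested, 9216 had a positive and 9871 a negative log2 fold change. Of the 20 release genes above their median GC content, 15 had a positive log2 fold change, with a median of 0.088. Of the other 21, 15 had a negative one, with a median of -0.055. Stx1a (57.9% GC), Syt3 (59.2%) and Slc17a7 (56.6%) were in the first set and Pclo (45.4%) to the second. Within single libraries, the correlation over the 41 genes between GC content and the level relative to the 6-library mean was -0.38, -0.40 and -0.51 in the wild-type and 0.78, 0.18 and 0.07 in the transgenic mice. All wild-type values were negative and all transgenic values positive, and transgenic mouse 1 stood far above the others.

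With the trend on GC content taken out of each library, the correlation over the 41 genes was 0.011 and 0 of 41 genes passed in edgeR (8 higher and 2 lower at an unadjusted p under 0.05), where 0.880% of all genes were called higher and 1.28% lower. The log2 fold change was then 0.19 for Stx1a (adjusted p = 0.0963), 0.15 for Syt3 (0.165), 0.18 for Slc17a7 (0.105) and -0.19 for Pclo (0.181). These 4 kept their sign. Snap25, whose transcript has the lowest GC content of the list at 38.7%, moved from 0.023 to 0.23, and Syt2, at 51.6% GC, moved from -0.38 to -0.40 (adjusted p = 0.101). With the trend on gene length removed instead, Pclo, with 22457 bases of exon, moved from -0.27 to -0.081 and no longer passed (adjusted p = 0.396), while Stx1a (0.0496), Syt3 (0.0421) and Slc17a7 (0.0421) did and were joined by Syn2 (0.0442), so that 4 of 41 were higher and 0 lower, beside 2.13% and 1.95% of all genes. Whether the trend was of the libraries or of the genotypes cannot be told apart, since it separated the same 3 mice from the same 3.

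**Figure D5:**
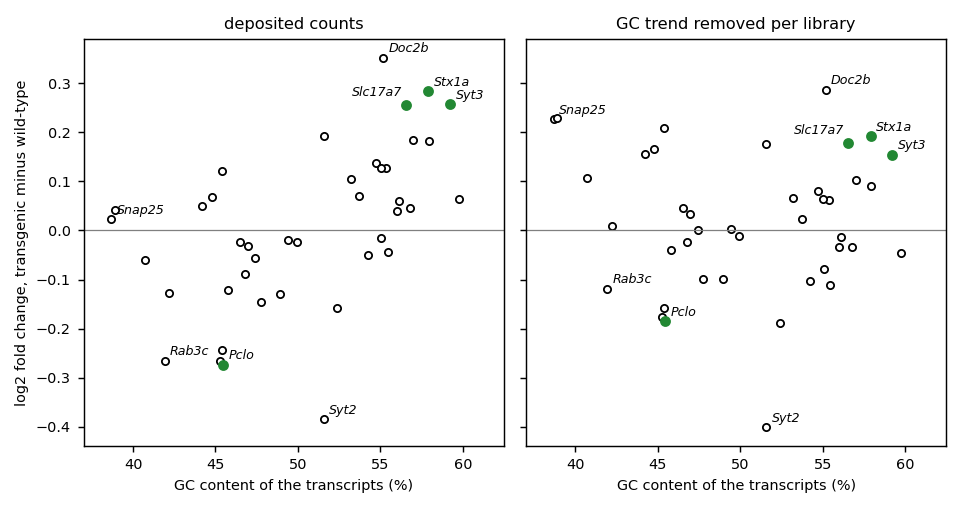
Log2 fold change (transgenic minus wild-type) against the GC content in percent of the longest transcript for the 41 genes, from the deposited counts (left) and with the GC trend removed from each library (right), with filled points for the 4 genes called in the left panel. On the left the points rise from Pclo and Rab3c to Stx1a and Syt3 (rho = 0.57). On the right the slope is gone (rho = 0.011) and Syt2 stays lowest.

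Genes that work around the 41 were read from 4 further lists. Of 56 other release genes 54 were tested (Vamp7 was listed at 0 counts and Cplx4 was too low), 2 were higher and 3 lower, beside the 3.10% and 4.0% of all genes tested, with a median log2 fold change of -0.0061. At an unadjusted p under 0.05 there were 12 higher and 8 lower, beside 13.0% and 14.8% of all genes. Syt17, a synaptotagmin relative, had 0.34 (adjusted p = 0.0264) and Napa (alpha-SNAP, the partner of Nsf) 0.25 (adjusted p = 0.0291) on the log2 scale. On the lower side Stxbp5l, the tomosyn-2 gene, was at 59.2, 53.0 and 50.4 CPM in the wild-type and 40.5, 31.9 and 33.9 CPM in the transgenic mice, with a log2 fold change of -0.61 ± 0.0996 (SE, adjusted p = 0.0225). Syt14 had -0.43 (adjusted p = 0.0301) and Lin7a, a scaffold of the Cask complex, -0.61 (adjusted p = 0.0313).

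Of 24 genes that fill the vesicle 23 were tested (Slc18a3 was too low), 3 were higher and 0 lower by edgeR (beside 3.10% and 4.0% of all genes), with 8 higher and 6 lower at an unadjusted p under 0.05 (13.0% and 14.8% of all genes) and 5 higher and 1 lower in DESeq2 (6.54% and 7.29%). Slc30a3, the vesicular zinc transporter ZnT3 of glutamatergic terminals, was at 56.3, 52.9 and 49.8 CPM in the wild-type and 73.6, 72.0 and 78.0 CPM in the transgenic mice. Its groups did not overlap, the log2 fold change was 0.49 ± 0.0594 (SE, adjusted p = 0.0100), and it passed with the GC trend removed as well (adjusted p = 0.0309). The proton pump subunits Atp6v1f and Atp6v0e2 had 0.24 (adjusted p = 0.0291) and 0.22 (adjusted p = 0.0337). Slc10a4, a vesicle protein of cholinergic and monoaminergic cells, had -0.88 (adjusted p = 0.0594) from a level of at most 1.82 CPM.

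Of 32 genes that retrieve the vesicle membrane 4 were higher and 1 lower (beside 3.10% and 4.0% of all genes), with 11 higher and 7 lower at an unadjusted p under 0.05 (beside 13.0% and 14.8%). The clathrin adaptor Epn1 (epsin 1) was at 298, 305 and 311 CPM in the wild-type and 383, 375 and 377 CPM in the transgenic mice, without overlap and with a log2 fold change of 0.31 ± 0.0419 (SE, adjusted p = 0.0137). Sh3gl1 (an endophilin) had 0.28 (adjusted p = 0.0406), Clta (clathrin light chain A) 0.19 (adjusted p = 0.0422) and Bin1 (amphiphysin 2) 0.24 (adjusted p = 0.0430). Cltc, the clathrin heavy chain, was the 1 that fell, by 0.22 on the log2 scale (adjusted p = 0.0493). Of 10 presynaptic calcium channel genes 1 was higher and 2 lower (again beside 3.10% and 4.0%), with 2 and 5 at an unadjusted p under 0.05 (beside the same 13.0% and 14.8%). The auxiliary subunit Cacnb4 was at 168, 145 and 138 CPM in the wild-type and 94.0, 98.9 and 115 CPM in the transgenic mice, a log2 fold change of -0.55 ± 0.0959 (SE, adjusted p = 0.0264). Cacna2d2 had -0.50 (adjusted p = 0.0450), and Cacnb3 lay on the other side with 0.32 (adjusted p = 0.0279). Cacnb1 had 0.21 (adjusted p = 0.0964). With the GC trend removed, 1 gene on these 4 lists passed, Slc30a3.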

How the data were processed

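The authors trimmed the reads with Trimmomatic, aligned them to mm10 with STAR and counted fragments per gene with featureCounts 1.5.0-p1 on the Ensembl 95 annotation of GRCm38, with reverse strand (setting 2), mapping quality of at least 3 and primary alignments, and deposited these counts without normalization, with the exonic length of each gene. Libraries were assigned to genotypes by the column labels. Total counts ran from 37710188 to 52497799 in wild-type and from 37414241 to 47027279 in transgenic libraries, and for the scarcest genes counting error adds to the spread between mice.

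The 41 genes and the lists of related genes and markers were chosen with earlier results of these data known. All 41 genes were named, those called, the most abundant of each family and Sv2a with the value in every mouse, and from each related list the 4 genes with the smallest adjusted p (Lin7a and Cltc were added to complete the calls of their lists). Genes were kept with filterByExpr in edgeR 4.0.16 (minimum count 10, 19087 genes), scaled by TMM and compared by a quasi-likelihood test of genotype alone in the 6 libraries, with Benjamini-Hochberg adjustment over all genes and a threshold of 0.05, in R 4.3.3. NOISeq, the study's own test, was not run. CPM are relative to the scaled library total, and FPKM are these per kilobase of deposited length. GC content was that of the longest GENCODE M21 transcript, and 54809 of 54838 genes matched by Ensembl identifier. Loess trends (span 0.5) of log2 counts on GC content or length were removed as offsets. Family ratios were compared by exact permutation over mice with scipy 1.17.1. Scripts were tested on simulated data. Other scalings, DESeq2 1.42.0, limma-voom (limma 3.58.1), other filters, the replicate block and leaving out each mouse were tried. An NRF1 motif search and protein sequences were not analysed here. Bsn shares 57 exonic bases (0.358%) with Gm47303 on the same strand, and no other of the 41 genes shares any.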

Additional observations from a re-analysis of the deposited data

How the results depend on the processing

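The 3 higher calls among the 41 genes became 6 with DESeq2's Wald test, 4 with the length trend removed, 2 with the replicate block as well, 0 with the GC trend removed (alone, with the replicate block or after the length trend) and 0 to 3 with a mouse left out. The 1 lower call became 3 with DESeq2's Wald test or no filter on low counts, 0 with DESeq2's size factors, the strict filter, the replicate block or any fit with the length or GC trend removed, and 0 to 1 with a mouse left out. The median log2 fold change of 0.023 became 0.080 with the length trend removed, 0.079 with the replicate block as well, 0.047 with both trends removed, and 0.0022 to 0.049 with a mouse left out. Of 779 fold changes of single genes under the alternatives, 657 kept their sign and their side of the threshold, 39 kept the sign and lost the call, 11 gained a call and 72 changed sign. The cause of these changes was not tested. Replicate numbers are shared by the genotypes, but same-numbered mice did not deviate together over 11191 genes (correlations of 0.399, -0.357 and 0.388), so the numbers were not taken as pairs, and the libraries grouped across the numbers instead (transgenic mouse 2 with wild-type mouse 3, 0.536). The replicate block, read with that in mind, called 3 of the 41 higher (Stx1a, Syt3 and Doc2b) and 0 lower, with adjusted p of 0.0675 for Slc17a7 and 0.0514 for Pclo. The share of all genes called with the block was not computed, so these counts have nothing to stand beside.

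Other release genes, 2 higher and 3 lower, had 5 higher with DESeq2's Wald test, 3 without a filter, 1 with the replicate block in any fit, 1 with both trends removed and 0 with the GC trend removed. They had 4 lower with the block alone, 2 with the length trend removed or with either trend and the block, 0 with the GC trend or both trends removed, and 0 to 4 higher and 0 to 5 lower with a mouse left out. Vesicle filling genes, 3 higher and 0 lower, had 5 higher with DESeq2's Wald test and 1 with the block or with any trend removed. They had 1 lower with DESeq2's Wald test or the GC trend and the block, 2 without a filter, and 0 to 3 higher and 0 to 2 lower with a mouse left out. Vesicle endocytosis genes, 4 higher and 1 lower, had 6 higher with DESeq2's Wald test, 1 with the block alone or after the length trend, 2 with the length trend removed and 0 in the fits with the GC trend removed. They had 3 lower with DESeq2's Wald test, 0 with its size factors, either other filter, the block or any trend removed, and 0 to 3 higher and 0 to 2 lower with a mouse left out. Calcium channel genes, 1 higher and 2 lower, had 0 higher with the GC trend removed in any fit or the length trend and the block. They had 1 lower with the length trend removed and 0 with the GC trend or both trends removed, and 0 to 1 higher and 0 to 2 lower with a mouse left out. Of all genes, DESeq2's Wald test called 6.54% higher and 7.29% lower. The shares were 0.880% and 1.28% with the GC trend removed, and 2.13% and 1.95% with the length trend removed. With a mouse left out they were 0.0570 to 2.40% higher and 0.342 to 3.52% lower. For the other alternatives no share was computed.

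The 72 values that changed sign belonged to genes outside the calls. On the log2 scale, with the length trend removed, Vamp1 0.080, Stxbp5 0.033, Syt11 0.012, Rims1 0.018, Rims3 0.039, Erc2 0.080, Unc13a 0.12 and Nsf 0.069. With the GC trend removed, Vamp1 0.033, Stxbp5 0.010, Syngr1 -0.033, Syt4 0.11, Syt12 -0.013, Cplx1 -0.033, Rims1 0.0013, Bsn -0.045, Erc2 0.046 and Nsf 0.0036. With both trends removed, Vamp1 0.11, Stxbp5 0.13, Syngr1 -0.012, Syt1 0.012, Syt4 0.069, Sv2b 0.031, Cplx1 -0.077, Rims1 0.042, Erc2 0.12, Unc13a 0.047 and Nsf 0.064. With the GC trend removed and the replicate block, Vamp1 0.032, Stxbp5 0.011, Syngr1 -0.033, Syt4 0.11, Syt12 -0.013, Cplx1 -0.034, Rims1 0.0020, Bsn -0.045, Erc2 0.044 and Nsf 0.0014. With the length trend removed and the replicate block, Vamp1 0.079, Stxbp5 0.034, Syt11 0.012, Rims1 0.018, Rims3 0.035, Erc2 0.078, Unc13a 0.11 and Nsf 0.066. With a mouse left out, the range was Vamp1 -0.062 to 0.0090, Synpr -0.072 to 0.18, Syt4 -0.12 to 0.035, Syt11 -0.040 to 0.013, Sv2a -0.094 to 0.00030, Sv2c -0.33 to 0.0022, Cplx1 -0.016 to 0.096, Rims1 -0.11 to 0.0090, Rims3 -0.11 to 0.079, Bsn -0.0052 to 0.12, Erc2 -0.062 to 0.036, Unc13a -0.16 to 0.081, Unc13b -0.0012 to 0.18 and Nsf -0.073 to 0.042. Among the family ratios, the difference between genotypes changed sign for Sv2b to Sv2a 0.079, Rims3 to Rims1 -0.11 and Synpr to Syp 0.014 with the GC trend removed, and with a mouse left out it ran from Syn2 to Syn1 -0.033 to 0.064, Sv2b to Sv2a -0.096 to 0.0095, Sv2c to Sv2a -0.34 to 0.083, Rims3 to Rims1 -0.097 to 0.12 and Synpr to Syp -0.21 to 0.041.

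With 3 mice per genotype, Cplx3 and Syn3, the scarcest genes, had SEs of 0.166 and 0.121 on the log2 scale, against a median of 0.063 for the 41 genes. Sv2c (0.158), Doc2b (0.132), Unc13c (0.127) and Synpr (0.122) were less scarce and had SEs above that of Syn3. Small differences in any of these genes were not detectable.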
